A study of Homo sapiens with 54 samples.

Results

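Acetylation of lysine 27 on histone H3 (H3K27Ac) was compared between T47D cells treated for 1 h with ethanol vehicle and T47D cells treated for 1 h with R5020, a synthetic progestin. T47D is an established human breast cancer line that carries both the estrogen receptor and the progesterone receptor (PR), and both groups were grown in the same serum-containing medium. Chromatin was formalin-fixed, sonicated and precipitated with 1 antibody lot in 3 libraries per treatment, 6 of the 54 chromatin immunoprecipitation and input libraries in the series. The deposited data hold 1 list of enriched regions per treatment. All rows of both lists on chromosomes 1 to 22 and X were used, 88869 regions for vehicle and 112542 for R5020, together 201411 of the 520465 regions in the 16 lists of the series. A region counted as present in the other list when the regions shared at least 1 bp. With 1 list per treatment there is no value per library, so no difference below has a replicate check or a test, and the read depth behind the lists is unknown. Intervals given with shares are 95% Wilson intervals and cover counting error alone, and neighbouring regions are not independent.

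H3K27Ac is laid down by the acetyltransferases p300 and CBP and marks active promoters and enhancers. The progesterone receptor, once bound by a progestin, attaches to DNA at progestin response elements, mostly in enhancers away from gene starts, and recruits coactivators that include these acetyltransferases. In breast cells it induces genes such as FKBP5 and ZBTB16 and is known to act on chromatin shared with the estrogen receptor. The question the design puts is where the mark is found before and after a short exposure to hormone.

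Gene starts give a view of the sequence under regions found with a single treatment. RefSeq start windows (GRCh38.p14, a patch release of the assembly that hg38 names) were matched by gene identifier for 15811 of 19970 protein-coding genes. The 250 bases before the start are shown for the 3 genes in each class whose single-treatment region had the highest -log10 q and covered at least 50% of those bases. Each sequence reads 5′ to 3′ on the gene's strand in lower case, and capitals mark a match to one of the searched hormone, AP-1, forkhead, GATA or interferon motifs. The GC box and CCAAT box, which were also searched, are left in lower case.
CORO2B, chr15:68578743-68578992, plus strand, region with R5020 alone: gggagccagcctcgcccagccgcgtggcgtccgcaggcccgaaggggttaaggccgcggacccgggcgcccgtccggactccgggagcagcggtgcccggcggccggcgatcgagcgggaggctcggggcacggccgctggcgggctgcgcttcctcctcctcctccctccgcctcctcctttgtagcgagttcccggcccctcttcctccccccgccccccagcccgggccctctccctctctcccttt
CHRM3, chr1:239386318-239386567, plus strand, region with R5020 alone: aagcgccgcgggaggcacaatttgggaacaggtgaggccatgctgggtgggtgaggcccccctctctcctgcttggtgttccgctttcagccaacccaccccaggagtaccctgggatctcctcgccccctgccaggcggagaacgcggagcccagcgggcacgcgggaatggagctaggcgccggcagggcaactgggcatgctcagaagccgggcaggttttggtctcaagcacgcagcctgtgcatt
ARSG, chr17:68258920-68259169, plus strand, region with R5020 alone: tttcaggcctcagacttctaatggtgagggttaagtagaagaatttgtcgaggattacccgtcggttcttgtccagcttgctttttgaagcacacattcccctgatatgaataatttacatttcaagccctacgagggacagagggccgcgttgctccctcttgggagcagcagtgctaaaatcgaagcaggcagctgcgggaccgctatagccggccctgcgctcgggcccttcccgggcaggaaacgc
TMCC2, chr1:205227696-205227945, plus strand, region with vehicle alone: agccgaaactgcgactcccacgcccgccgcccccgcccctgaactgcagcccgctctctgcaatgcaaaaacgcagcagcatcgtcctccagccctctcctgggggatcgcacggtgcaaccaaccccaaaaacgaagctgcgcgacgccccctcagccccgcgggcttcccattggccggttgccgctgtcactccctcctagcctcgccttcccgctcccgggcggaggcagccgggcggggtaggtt
ISG15, chr1:1013247-1013496, plus strand, region with vehicle alone: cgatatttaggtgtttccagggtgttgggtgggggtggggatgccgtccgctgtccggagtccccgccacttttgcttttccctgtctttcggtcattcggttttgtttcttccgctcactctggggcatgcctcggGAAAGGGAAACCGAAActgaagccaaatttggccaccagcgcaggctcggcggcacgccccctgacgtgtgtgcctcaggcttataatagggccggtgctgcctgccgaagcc
PCDH18, chr4:137532495-137532744, minus strand, region with vehicle alone: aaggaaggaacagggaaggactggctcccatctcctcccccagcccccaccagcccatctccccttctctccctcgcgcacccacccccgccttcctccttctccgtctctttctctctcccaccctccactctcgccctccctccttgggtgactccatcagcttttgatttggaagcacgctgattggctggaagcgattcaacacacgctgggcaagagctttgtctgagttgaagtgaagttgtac

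CORO2B, which encodes an actin-binding coronin, had 416 covered bp within 10 kb of the gene with vehicle and 4495 bp with R5020, and the region at its start was 986 bp wide with a fold of 6.24 over background. CHRM3, a muscarinic acetylcholine receptor gene, had 1964 bp and 2435 bp, so coverage across the gene changed little although its start region was found with R5020 alone. ARSG, a lysosomal sulfatase gene, had 27377 bp and 47836 bp. The start regions of CORO2B and CHRM3 overlapped a PR region of R5020-treated cells, and that of ARSG did not. TMCC2, a transmembrane and coiled-coil gene, had 2925 bp with vehicle and 190 bp with R5020. ISG15, an interferon-induced ubiquitin-like modifier, had 7081 bp and 3324 bp. The vehicle region at the ISG15 start was 1337 bp wide (fold 5.21, -log10 q 9.46) and held 245 of the 250 bases shown. The capitals in ISG15 are 2 overlapping matches to an interferon response element, searched as GAAA, any 2 bases and GAAA. PCDH18, a protocadherin gene, had 1124 bp with vehicle and no region with R5020. Of these vehicle regions, the one at PCDH18 overlapped an R5020 PR region and those at TMCC2 and ISG15 did not.

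R5020 cells had more H3K27Ac regions but hardly more acetylated sequence. The R5020 list was 26.6% longer (log2 ratio 0.34, 95% counting interval 0.33 to 0.35), while covered bases went from 85.6 Mb to 88.4 Mb, 3.28% more (log2 ratio 0.05). That small surplus turned negative under every filter tried: the log2 ratio was -0.03 with -log10 q of at least 5, -0.06 with a fold of at least 5, and -0.08 when both lists were limited to their 88869 top regions by -log10 q. The last of these removes R5020 regions only, so it can lower the R5020 bases but not raise them. Regions were narrower with R5020, with a median width of 404 bp against 475 bp and a mean of 785 bp against 963 bp. The vehicle list had 1706 regions of at least 5 kb and the R5020 list 1391, whereas both had 42 of at least 20 kb. The lists shared 60.8 Mb, which is 71.0% of vehicle bases and 68.8% of R5020 bases.

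Of the bases acetylated with R5020 alone, 27.6 Mb in all, 58.9% lay in regions with no vehicle partner and the rest lay in regions that also had a vehicle partner. Of the 24.8 Mb acetylated with vehicle alone, 43.1% lay in regions with no R5020 partner, so a larger part of the vehicle-only than of the R5020-only sequence lay within regions that had a partner, beside or between the shared stretches. Where 1 vehicle region met 1 R5020 region (38546 pairs), the median width was 592 bp with vehicle and 575 bp with R5020, 55.4% of pairs were narrower with R5020, and the summits lay a median of 90 bp apart.

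Regions found with R5020 alone numbered 46909, 41.7% of the R5020 list (41.4 to 42.0), and regions found with vehicle alone 29107, 32.8% of the vehicle list (32.4 to 33.1). Both classes were narrow and weak within their lists: the median width was 285 bp with R5020 alone and 305 bp with vehicle alone, and the median fold 3.25 and 3.17, against 4.42 and 4.27 for shared regions. Most lay close to the mark of the other list. The median distance to it was 1772 bp for R5020-only and 1234 bp for vehicle-only regions, and 3.67% and 5.70% were more than 50 kb away. R5020-only regions lay inside protein-coding genes at a similar share to shared ones (63.1%, 62.7 to 63.5, against 63.6%, 63.3 to 64.0), and vehicle-only regions less often (55.1%, 54.6 to 55.7).

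Presence in the other list followed the strength of a region. Of vehicle regions with -log10 q up to 2, 36.6% (35.0 to 38.3) were also found with R5020, and the share was 72.9% between 5 and 10, 95.1% between 10 and 20 and 100% of 7574 regions above 50. The R5020 list ran from 27.4% (26.2 to 28.7) to 99.99% of 7735 regions. Regions of 1 treatment with a high -log10 q were therefore few: between 20 and 50 there were 41 with R5020 alone and 11 with vehicle alone, and above 50 there were 1 and 0.

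**Figure D1:**
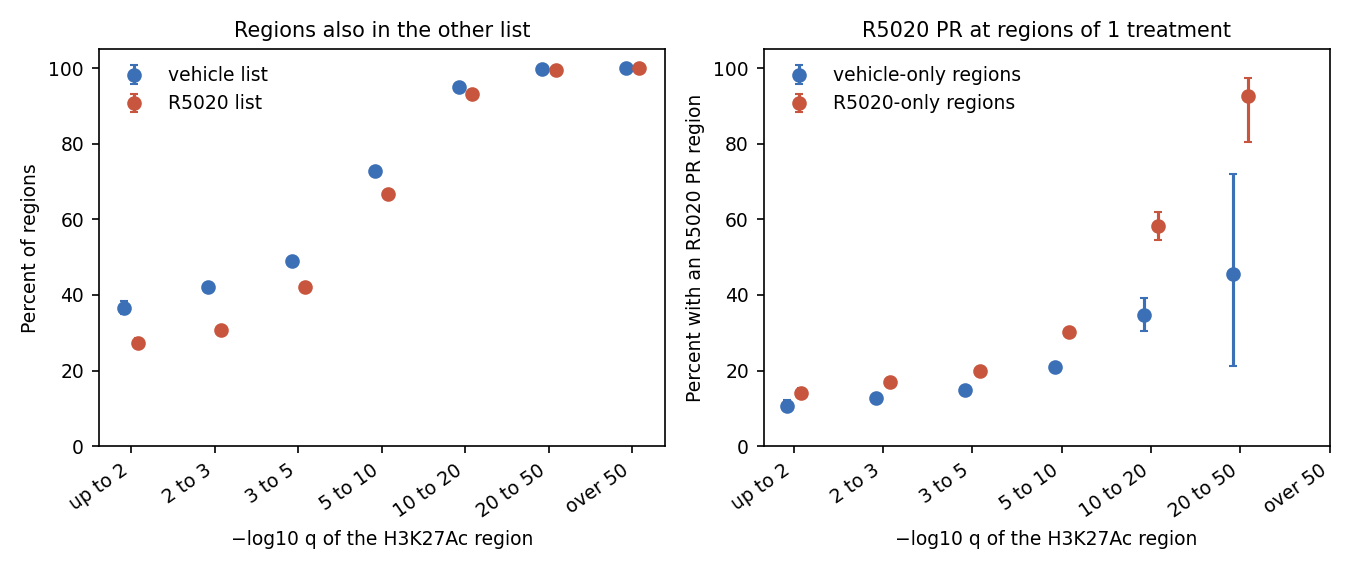
Left, percent of H3K27Ac regions also present in the other treatment's list, by bin of −log10 q in their own list. Right, percent of regions of 1 treatment that overlap an R5020 PR region, in bins with at least 10 such regions. Bars are 95% Wilson intervals. The left shares climb from 36.6% and 27.4% to 100% and 99.99%, and at right the R5020-only regions lie above the vehicle-only regions in each bin.

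PR regions of hormone-treated cells were more frequent at R5020-only than at vehicle-only acetylated regions. They overlapped 21.3% of R5020-only regions (20.9 to 21.6) and 15.6% of vehicle-only regions (15.2 to 16.0), a difference of 5.65 points (Newcombe interval 5.09 to 6.21). Shared regions overlapped PR more often than either, 47.9% in the R5020 list and 50.5% in the vehicle list. By bases rather than regions, R5020 PR covered 13.1% of R5020-only, 8.35% of vehicle-only and 27.5% of shared R5020 sequence. PR regions of vehicle-treated cells overlapped 0.102% of R5020-only and 0.598% of vehicle-only regions. Under a stricter rule, in which an overlap counts if it spans 50% of each region, the order of the single-treatment classes reversed, with PR at 5.87% of R5020-only and 6.20% of vehicle-only regions.

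The contrast widened with strength. Among R5020-only regions the share with R5020 PR was 14.2% at -log10 q up to 2, 30.3% (29.4 to 31.2) between 5 and 10, 58.3% (54.6 to 61.9) between 10 and 20 and 92.7% (80.6 to 97.5) of the 41 regions between 20 and 50. Vehicle-only regions had 10.7%, 20.9% (19.8 to 21.9), 34.7% (30.4 to 39.2) and 45.5% (21.3 to 72.0 over 11 regions) in the same bins. At shared R5020 regions the share was 38.2% (37.5 to 38.9) between 5 and 10, 61.6% (60.6 to 62.6) between 10 and 20 and 78.2% (77.2 to 79.0) between 20 and 50, so the R5020-only regions lay below shared regions in the first of these bins and above them in the last. Some of the 41 R5020-only regions of the last bin lay in an array of near-identical genes on chromosome 17, described below, where values of individual regions are uncertain. Maf1, a repressor of RNA polymerase III, was found after R5020 at 3.30% of R5020-only regions (3.14 to 3.46), 1.01% of vehicle-only regions (0.898 to 1.13) and 20.4% of shared R5020 regions. POLR3A, the largest subunit of that polymerase, was found after R5020 at 0.0938% and 0.0893% of the single-treatment classes.

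The 5 R5020-only regions of highest -log10 q all overlapped R5020 PR. Of these, 4 lay between positions 43270636 and 43292844 of chromosome 17, among the tandem genes of the U2 small nuclear RNA, a core part of the spliceosome. The strongest, chr17:43270636-43271720, had a fold of 10.0 and a -log10 q of 55.5 and overlapped the snRNA gene LOC124904140. The other of the 5, chr12:1049281-1050237 (fold 10.3, -log10 q 33.6), was inside ERC1, which encodes a scaffold protein of the secretory and NF-kappaB pathways. Because 4 of 5 fell in this array, it was examined as a whole after the values were seen. From RNU2-1 to the last of 12 further snRNA genes (chr17:43233790-43300231, 66.4 kb), vehicle cells had 22 regions over 13512 bp, 20.3% of the span. R5020 cells had 44 regions over 45198 bp, 68.0%, of which 26 were R5020-only. PR regions in the span numbered 14 with vehicle and 31 with R5020, Maf1 regions 23 with R5020, and POLR3A regions 0 with R5020. The copies are near-identical, so reads cannot be assigned to single copies and the values of individual regions there are uncertain.

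The 5 vehicle-only regions of highest -log10 q were 527 to 3569 bp wide, against 751 to 1085 bp for the R5020-only ones. The first, chr5:118006266-118009834 (fold 10.1, -log10 q 33.1), lay in the noncoding gene LINC02147, 526898 bp from the nearest protein-coding gene. Another lay in a noncoding gene 270440 bp from TRPS1, a GATA-type repressor of the luminal lineage. The others were 118 bp from ARHGAP26, inside EPHA6, and at the start of TMCC2. The first 2 overlapped PR regions of both vehicle and R5020 cells, and the other 3 overlapped none.

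Covered bases were then summed over each protein-coding gene and 10 kb on either side. A gene was called higher or lower when one treatment had at least 2 times the bases of the other and at least 1000 bp more. Of 19970 genes, 620 (3.10%) were higher with R5020 and 396 (1.98%) were lower, 61.0% of the calls being higher. The balance turned in other settings. With equal numbers of top regions there were 387 higher and 661 lower genes (36.9% higher), and with -log10 q of at least 5 there were 469 and 591 (44.2% higher). Limiting the numbers removes R5020 regions only, so it can take away higher calls and add lower calls but not the reverse. In all 3 settings 264 genes were higher and 266 lower. Over the 15560 genes covered in both lists the median log2 ratio was -0.04, with 5th and 95th percentiles of -0.85 and 0.97, and 53.4% of the 16396 genes covered in either list had fewer bases with R5020. Among the higher genes 47 had no vehicle region, and among the lower genes 38 had no R5020 region.

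**Figure D2:**
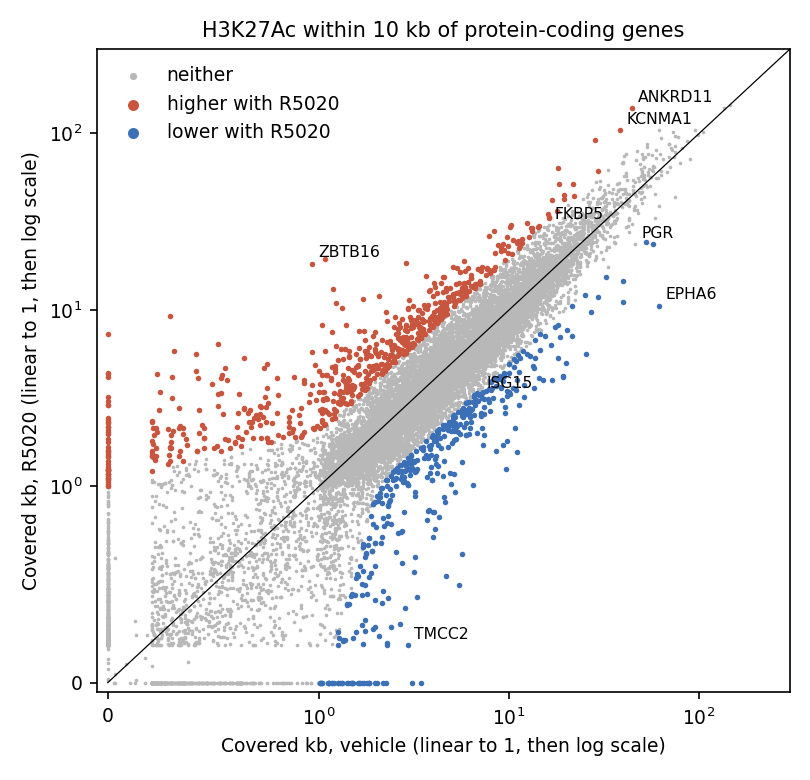
Covered kb of H3K27Ac within 10 kb of each protein-coding gene, vehicle against R5020, on axes that are linear to 1 kb and logarithmic above. The line marks equal coverage. The 620 higher genes (red) and 396 lower genes (blue) flank a broad band of genes near the line.

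The largest rise was at ANKRD11 (chr16:89267630-89490561), which encodes a chromatin cofactor that binds nuclear receptor coactivators. Its covered bases went from 44358 bp to 139094 bp, so that 57.3% of the gene and its flanks was acetylated against 18.3%, with 76 R5020-only and 3 vehicle-only regions and 95 R5020 PR regions in the same span. KCNMA1, the pore subunit of the BK potassium channel, went from 38477 bp to 104928 bp with 103 R5020-only regions and 134 PR regions. MAD1L1, a spindle checkpoint gene, went from 18153 bp to 63752 bp. At these 3 genes the added bases lay in many regions spread over long spans rather than in a single new one. ECE1, the endothelin-converting enzyme, went from 18343 bp to 51726 bp, and AGO2, the slicer Argonaute of RNA interference, from 21797 bp to 51660 bp. RPTOR, the substrate-binding subunit of the mTORC1 kinase, went from 8301 bp to 27967 bp, and SLCO4A1, an organic anion transporter, from 10201 bp to 30425 bp. FNDC3B, a fibronectin type III protein (16829 bp to 42159 bp), and ABHD12, a lysophospholipase (19423 bp to 44576 bp), also rose. So did MTMR12, a myotubularin-related pseudophosphatase (19458 bp to 42525 bp). With equal numbers of regions 10 of the 12 stayed higher. The exceptions were RGS12, a regulator of G-protein signalling (29535 bp to 61580 bp), and ACSS1, the mitochondrial acetyl-CoA synthetase (22065 bp to 44133 bp), which stood close to the fold of 2. FNDC3B and MTMR12 were not called when a fold over background of at least 5 was required of each region.

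The largest fall was at EPHA6 (chr3:96814594-97761532), an ephrin receptor gene, from 61616 bp to 10592 bp, with 55 vehicle-only regions against 1 R5020-only region. PHACTR1, a regulator of actin and protein phosphatase 1, fell from 57085 bp to 23576 bp, and AFF3, a nuclear protein of the AF4 family, from 52398 bp to 24158 bp. MIPOL1 fell from 39598 bp to 11122 bp and NCAM2, a neural adhesion gene, from 39631 bp to 14553 bp. PR regions of R5020-treated cells had a density per 100 kb of 5.48 at EPHA6, 12.3 at PHACTR1, 12.6 at AFF3, 10.7 at MIPOL1 and 7.44 at NCAM2, on both sides of the median of 9.99 at covered genes that were not called. PTGER3, a prostaglandin E2 receptor (29554 bp to 11908 bp), DST, the cytoskeletal linker dystonin (32507 bp to 15288 bp), PCED1B (25317 bp to 5612 bp) and NAALADL2 (26849 bp to 9710 bp) also fell. RERG, an estrogen-regulated growth inhibitor of the Ras family, fell from 19123 bp to 4186 bp, and MUC16, the mucin that carries the CA125 antigen, from 19838 bp to 5021 bp. ANKRD26 fell from 19220 bp to 4207 bp. All 12 were also lower with -log10 q of at least 5 and with a fold of at least 5.

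**Figure D3:**
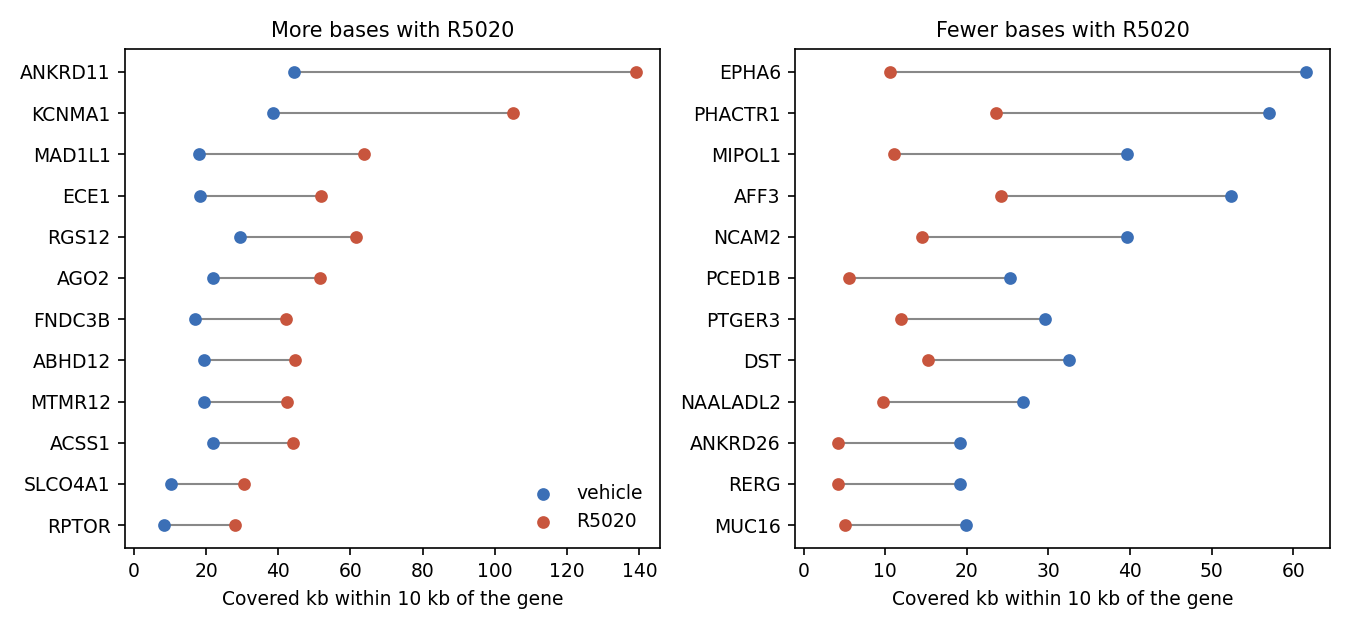
Covered kb with vehicle (blue) and R5020 (red) for the 12 genes with the largest rise and the 12 with the largest fall among called genes, 1 per group of overlapping neighbourhoods. Each point is the value of 1 list, with no error. ANKRD11 has the widest gap at left and EPHA6 at right.

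Genes with a dense set of R5020 PR regions were more often higher and less often lower. Genes with a region in either list were ranked by R5020 PR regions per 100 kb of gene and flanks and divided into 5 groups of equal size. The share called higher was 1.56% (1.19 to 2.04) in the group with the fewest PR regions, then 2.62%, 3.51%, 5.25% and 5.98% (5.22 to 6.84) in the group with the most. The share called lower ran the other way, 3.87% (3.26 to 4.59), 3.63%, 2.35%, 1.62% and 0.610% (0.395 to 0.940). Equal numbers of regions left both gradients in place, 0.976% to 4.00% higher and 6.01% to 1.34% lower. Coverage before hormone moved with PR density too: the median vehicle coverage was 1614 bp in the lowest group and 9681 bp in the highest, and its part in the gradients was not tested. By call, the median was 13.7 PR regions per 100 kb at higher genes, 6.81 at lower genes and 9.99 at the other covered genes. At least 1 PR region was present at 99.2% of higher, 97.2% of lower and 97.15% of other covered genes.

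**Figure D4:**
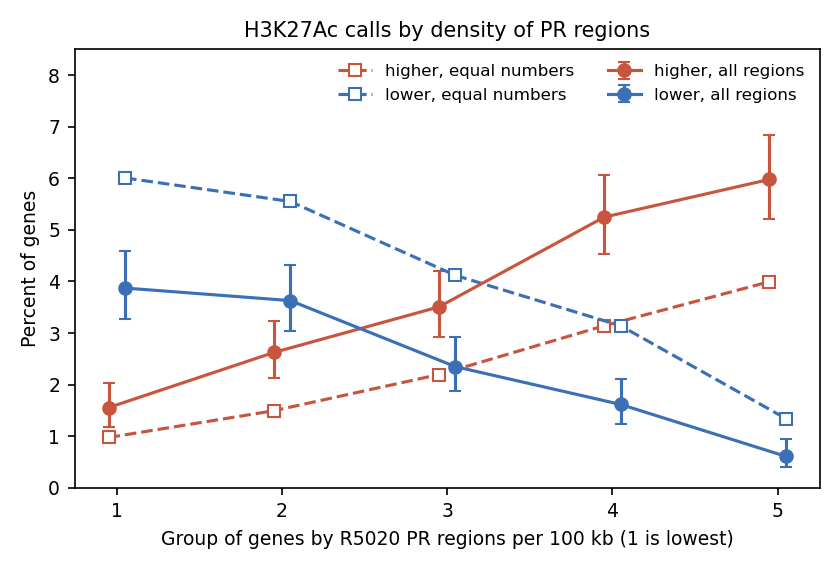
Percent of genes called higher (red) or lower (blue) with R5020, by group of R5020 PR region density from lowest (1) to highest (5). Filled points use all regions, with 95% Wilson intervals, and open points equal numbers of top regions. The higher share climbs from 1.56% to 5.98% and the lower share drops from 3.87% to 0.610%.

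Of 23 progestin-responsive genes, 3 were higher with R5020 (13.0%, against 3.10% of all genes) and 0 lower (1.98% of all genes), and 15 had more bases with R5020 against 7 with fewer. The median log2 ratio over the 22 covered members was 0.15, against -0.04 over all genes covered in both lists. ZBTB16, a zinc finger repressor induced by steroid hormones, went from 965 bp in 3 regions to 18309 bp in 29 regions, 28 of them with R5020 alone, and had 23 R5020 PR regions. HSD11B2, which inactivates cortisol, went from 6344 bp to 13643 bp, although inside the gene span without flanks it was not called. STAT5A, a transcription factor of mammary prolactin and progesterone signalling, went from 3952 bp to 8885 bp, a call lost when regions had to have a fold of at least 5. FKBP5, a co-chaperone of steroid receptors, had the most bases gained after ZBTB16, 16151 bp to 30145 bp with 15 R5020-only regions and 46 PR regions, but its ratio of 1.87 was under the fold. Members with more bases below the fold included MT2A, a metallothionein (4735 bp and 7353 bp), NFKBIA, the NF-kappaB inhibitor (11935 bp and 15269 bp), CEBPD, a transcription factor (3827 bp and 5678 bp), and TSC22D3, a glucocorticoid-induced leucine zipper (4921 bp and 6425 bp). PDK4, a kinase that limits glucose oxidation, had 464 bp and 1430 bp, past the fold but with a difference of 966 bp, under the minimum of 1000 bp. SGK1, a serum- and steroid-induced kinase (614 bp and 685 bp), F3, the coagulation tissue factor (1351 bp and 1551 bp), KLF9, a steroid-induced zinc finger factor (7736 bp and 7789 bp), EGFR (6351 bp and 7029 bp), its ligand TGFA (7442 bp and 7773 bp) and FASN, fatty acid synthase (16566 bp and 17116 bp), were nearly level.

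Members with fewer bases below the fold included the secreted mediators AREG, an EGFR ligand (6125 bp and 4051 bp), and WNT4 (4907 bp and 3879 bp), and ELF5, a factor of alveolar cells (10488 bp and 7025 bp). The cell cycle inhibitor CDKN1A (10565 bp and 8074 bp), the clock gene PER1 (9462 bp and 7939 bp), the phosphatase DUSP1 (6229 bp and 5892 bp) and the EGFR inhibitor ERRFI1 (2076 bp and 1965 bp) also had fewer. TNFSF11, the paracrine mediator RANKL, had no region in either list, with 3 R5020 PR regions in its span. With equal numbers of regions the same 3 genes were higher, and 11 members had more bases and 11 fewer.

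**Figure D5:**
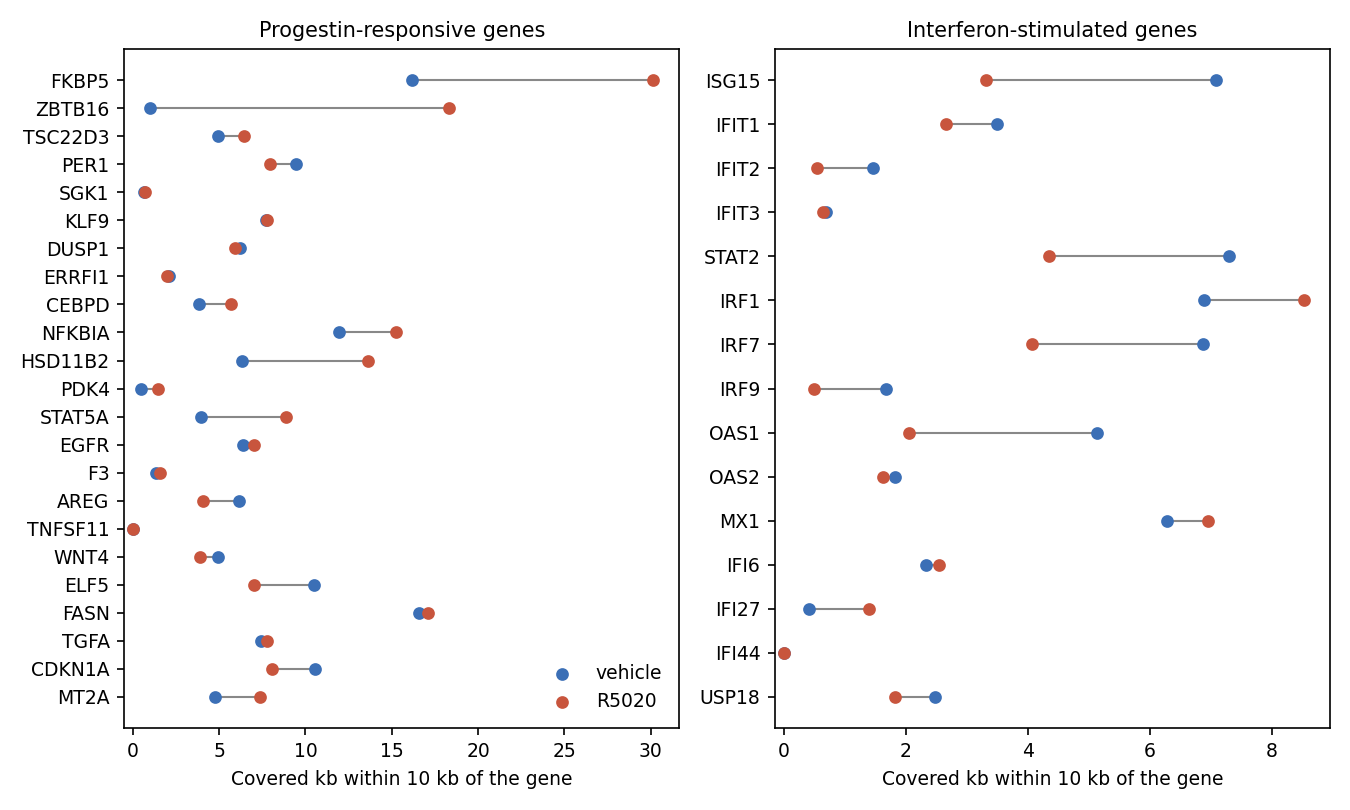
Covered kb within 10 kb of each member of the progestin-responsive list (left, 23 genes) and the interferon-stimulated list (right, 15 of 16 genes), vehicle in blue and R5020 in red, each point the value of 1 list. ZBTB16 and FKBP5 have the longest lines toward R5020 at left, and ISG15 and OAS1 the longest toward vehicle at right.

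Interferon-stimulated genes had 3 of 16 members lower (18.8%, against 1.98% of all genes) and 0 higher, with 10 having fewer bases and 5 more. The median log2 ratio over 15 covered members was -0.40, and it was also -0.40 with equal numbers of regions. Besides ISG15, OAS1, a sensor of double-stranded RNA, went from 5142 bp to 2055 bp, and IRF9, the DNA-binding subunit of the interferon-activated factor, from 1679 bp to 502 bp. IRF9 was not called with -log10 q of at least 5 or without flanks, and neither ISG15 nor IRF9 with a fold of at least 5. Without flanks ISG15 stayed lower, with an R5020 minus vehicle difference of -1044 bp against -3757 bp with flanks. The flanks of ISG15 reach into AGRN, which was also lower (11436 bp to 5364 bp). STAT2, the partner of IRF9, had 7298 bp and 4353 bp and IRF7 had 6882 bp and 4079 bp, both below the fold. IRF1 (6896 bp and 8526 bp) and the antiviral GTPase MX1 (6285 bp and 6949 bp) had more bases. Of 11 members with a start entry, 9 kept a region at the start in both lists, and 7 had a match to the interferon response element before the start, an element found before 2.71% of all 22131 starts. The 7 are counted by gene and the 2.71% by start. Of the 3 lower members, ISG15 had the element and OAS1 and IRF9 did not. IFI27, IFI6, IFIT1, IFIT3 and MX1 had the element and a start region in both lists.

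No gene of luminal identity was called. The 17 identity genes had a median of 22870 bp with vehicle and 23681 bp with R5020. Gene by gene the median log2 ratio was -0.12, and 12 had fewer bases with R5020 against 5 with more. All 9 luminal markers had regions in both lists. ESR1, the estrogen receptor gene, had 59644 bp and 55974 bp, and the pioneer factors FOXA1 and GATA3 had 20670 bp and 18224 bp, and 36874 bp and 35256 bp. PGR itself, which encodes PR, had the largest difference of the list: 46045 bp in 60 regions with vehicle and 23681 bp in 39 regions with R5020, with 34 vehicle-only and 6 R5020-only regions. Its ratio of 1.94 was under the fold with all regions, and it was not called with -log10 q of at least 5. GRHL2, an epithelial factor, had more, 59706 bp and 72386 bp.

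Of 18 estrogen-responsive genes, 1 was lower (5.56%, against 1.98% of all genes) and 0 higher. TFF1, a secreted trefoil peptide and a standard estrogen target, went from 3756 bp in 8 regions to 873 bp in 2 regions, a call lost with -log10 q of at least 5, with a fold of at least 5 and without flanks. GREB1, a receptor cofactor, had 74396 bp and 78415 bp, CCND1, cyclin D1, had 19514 bp and 19913 bp, and RARA, a retinoic acid receptor, had 58359 bp and 45489 bp. The median log2 ratio of this list was -0.14.

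Basal and myoepithelial markers had 2 of 9 members lower (against 1.98% of all genes) and 0 higher. TP63, the basal master regulator, went from 25156 bp to 12102 bp, a call that did not hold with a fold of at least 5. KRT5 had no vehicle region and 583 bp with R5020. Of 19 markers of other lineages 2 were higher (10.5%, against 3.10% of all genes): PDGFRB, a fibroblast receptor, went from 1005 bp to 3417 bp and PECAM1, an endothelial adhesion gene, from 0 bp to 1600 bp, with neither called at -log10 q of at least 5. ADIPOQ, an adipocyte hormone gene, was not called with all regions but was lower with -log10 q of at least 5 and with a fold of at least 5. Over 4 endothelial and 6 fibroblast markers the median coverage was 688 bp and 124 bp with vehicle and 1324 bp and 0 bp with R5020. All 5 immune markers had vehicle regions, from 416 to 10350 bp, against 2 of 4 endothelial and 3 of 6 fibroblast markers. Of the 19 markers of other lineages 14 had a region in either list and 5 had none. The sums include 10 kb flanks, which can hold regions of neighbouring genes.

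Other pathways had few or no calls. Among 18 acetylation writers, erasers, readers and coregulators 1 was higher (5.56%, against 3.10% of all genes): CREBBP, the acetyltransferase CBP, went from 5973 bp in 4 regions to 11986 bp in 19 regions, and was not called with equal numbers or with -log10 q of at least 5. Of 18 immediate early genes none was called, with FOS at 7113 bp and 6039 bp, JUN at 4691 bp and 4666 bp, and FOSB just under the fold at 6209 bp and 3106 bp. ATF3, a stress-induced member of that list, had a region at its start with R5020 alone and 8333 bp and 12011 bp across the gene. None of 17 cell cycle genes, 28 genes of the RNA polymerase III machinery or 44 large ribosomal subunit genes was called, with median log2 ratios of -0.07, 0.01 and -0.07. With -log10 q of at least 5, POLR3A was called higher, and with all regions it had 8403 bp and 14342 bp.

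Most gene starts with a region had one in both lists. Of 11026 genes with a vehicle region within 1 kb of a start, 97.7% (97.4 to 98.0) had one with R5020. Among all 15811 genes with a start entry, 10771 had a region in both lists, 406 (2.57%) with R5020 alone, 255 (1.61%) with vehicle alone and 4379 in neither. With equal numbers of regions the order turned, with 282 and 355. For 401 and 248 of the changed genes the region at the start was one with no partner in the other list. Of the 406 genes, 58 were called higher and 4 lower across the gene, and of the 255, 31 were called lower and 2 higher, against 3.10% higher and 1.98% lower over all genes. The start lies inside the span that is summed, so part of this overlap is built in. Of R5020-only regions 2.61% (2.47 to 2.76) lay at a start, as did 3.50% (3.30 to 3.72) of vehicle-only regions and 20.9% (20.6 to 21.2) of shared R5020 regions.

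Starts marked under a single treatment differed in composition from those marked in both. The median GC content of the 250 bases before the start was 65.6% at starts with a region in both lists, 59.6% with R5020 alone, 58.0% with vehicle alone and 50.4% with neither. Motifs were searched on both strands, and short motifs can overlap. The AP-1 site TGANTCA was present before 10.2% of R5020-only starts (8.12 to 12.8), 5.28% of vehicle-only starts (3.44 to 8.01), 3.53% of starts in both lists, 8.80% (8.14 to 9.50) of starts in neither list and 5.35% of all starts. The share at starts in neither list was thus within the interval of the R5020-only starts. The progestin response hexamer AGAACA was present before 12.9% (10.5 to 15.7), 9.23% (6.72 to 12.6), 7.01%, 15.6% and 9.83% of the same classes in that order, and the core ACANNNTGT before 2.79%, 5.81%, 2.17%, 6.07% and 3.43%. The intervals of the single-treatment classes touch or overlap for both progestin motifs. The forkhead site TGTTTAC (2.48% and 3.43%), the GATA site AGATAA (6.82% and 7.92%) and the interferon response element (2.33% and 3.96%) had overlapping intervals as well. The GC box GGGCGG was present before 44.3% and 40.1% of single-treatment starts and 67.8% of starts in both lists, and the CCAAT box before 25.9%, 33.0% and 32.6%. The estrogen response element, searched as GGTCA, any 3 bases and TGACC, was present before 0 of 645 and 0 of 379 single-treatment starts and 6 of all starts. GC content differs between the same classes, and its part in these shares was not tested.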

How the data were processed

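Each antibody and treatment has 1 list of enriched regions from 3 libraries. How the libraries were combined and whether the input served as control are not given in the sources used here. Cutadapt, Bowtie2, MACS2 and the hg38 build are named in the submitters' processing notes, without versions. The deposited lists give each region a fold over background, a linear ratio, and a -log10 q-value, both the authors'. The same bins and cutoffs of these values were applied to both lists, and whether the lists share a scale is unknown. Vehicle values ran from 1.30 to 288 and R5020 values from 1.31 to 294 in -log10 q.

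Rows on chromosome Y (1 per list) and scaffolds were left out. Overlaps, covered bases and gene sums were computed with Python 3.11.15, numpy 2.4.6, pandas 2.3.3 and scipy 1.17.1, on RefSeq GRCh38.p14 protein-coding genes with 10 kb flanks. The code was checked on altered copies of the vehicle list, in which every region at chosen well-covered genes was removed. It recovered 200 of 200 planted genes and made 0 calls with a list against itself. Both outcomes follow from the calling rule, so they check the code alone and not how often calls between real lists are false.

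The members and gene lists were chosen with earlier results of these data known. Named genes are the 12 largest rises and falls among called genes, 1 per group of overlapping neighbourhoods, the 5 strongest regions of each treatment alone, all progestin-responsive genes, and members of other lists past the fold. Other list members and the 3 start sequences per class were chosen after their values were seen. Alternatives were minimums of 5 for -log10 q and for the fold, equal numbers of top regions, 50% shared, summits, stitching within 1 kb, other flanks and windows, and a 1.5 fold call. No depth per sample is known. Values of some list members are not reported here.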

Additional observations from a re-analysis of the deposited data

Results flagged for a closer look

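Regions on unplaced and unlocalised scaffolds were outside the comparison by the choice of chromosomes and numbered 189 with vehicle and 276 with R5020. They were not compared further.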

How the results depend on the processing

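No paired analysis was possible because the 3 libraries of each treatment are merged in 1 list, and for the same reason no replicate could be left out. Settings are given in the order -log10 q of at least 5, fold of at least 5, equal numbers, where no other is named, and the cause of each shift was not tested. The log2 ratio of region counts was 0.21, 0.19 and 0 (equal by construction), and 0.22 after stitching. The log2 ratio of covered bases was -0.0306, -0.0597 and -0.0766, the reverse of the main 0.05. Shared bases were 73.9%, 75.5% and 69.1% of vehicle bases. Vehicle regions present with R5020 were 72.9%, 83.2% and 61.7%, then 38.4% with 50% of both regions shared, 70.6% after stitching and 57.9% by summits. R5020 regions present with vehicle were 68.9%, 79.4% and 65.8%, then 30.4%, 59.7% and 50.6%. PR at R5020-only regions was 35.0%, 59.8% and 24.0%, then 5.87% with 50% shared, 20.4% with strong PR regions (-log10 q of at least 5) and 11.6% by summits. The corresponding shares were 64.2%, 78.2%, 51.3%, 10.9%, 44.8% and 26.6% at shared regions, and 27.2%, 50.6%, 16.7%, 6.20%, 14.6% and 9.27% at vehicle-only regions. The counts that moved by over 1.5 times were higher genes, 387 with equal numbers, 958 after stitching and 1412 at a fold of 1.5, lower genes, 759 with a fold of at least 5, 661 with equal numbers and 1052 at a fold of 1.5, and starts with R5020 alone, 270 with -log10 q of at least 5. Gene list members were 6 higher and 6 lower, and ran from 4 to 7 and from 5 to 9 over the q filter, equal numbers and no flanks. The lists held 23, 17, 18, 18, 17, 16, 18, 9, 19, 28 and 44 genes, some of them in more than 1 list. With all regions 3.10% of all 19970 genes were higher and 1.98% lower. With the fold filter the only higher members were ZBTB16, HSD11B2 and TSC22D3. The fold filter on named genes was added after seeing the data. Of 36 named genes 31 kept their call with the q filter, 25 with the fold filter, 32 with equal numbers and 32 without flanks, and none reversed.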

Other observations

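The balance of acetylation differed between chromosomes. Over all genes 3.10% were higher and 1.98% lower. Covered bases were most increased on chromosome 20, from 3.27 Mb to 3.71 Mb (13.3% more). There 35 of 537 genes were higher and 3 lower, and ABHD12, ACSS1 and SLCO4A1 lie on it. Chromosome 16, with ANKRD11, had 11.7% more bases, with 36 of 854 genes higher and 14 lower. Chromosome 14 had 10.9% more bases, but 17 of its 605 genes were higher and 12 lower, close to the shares over all genes. Chromosome 15 had 9.34% more, with 28 of 617 genes higher and 10 lower. Chromosome 17 had 9.30% more, with 58 of 1169 genes higher and 11 lower. Chromosome 22 had 9.00% more, with 19 of 451 genes higher and 2 lower. Chromosome 19 went the other way, from 5.82 Mb to 5.33 Mb (-8.39%), although its number of regions went from 5513 to 6369. Of its 1451 genes 18 were higher and 46 lower. Chromosome X had -4.07% of bases. The number of regions was larger with R5020 on every chromosome compared.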
